A study of Rattus norvegicus with 44 samples.

Results

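Cholesterol synthesis was examined through 8 genes in the dentate gyrus (DG) of rats: the transcription factor gene Srebf2, its regulator Insig1, and the enzymes Hmgcs1, Idi1, Fdft1, Sqle, Lss and Dhcr7. The genes were named from the pathway, with earlier results of these data known, and they are 8 of the 18347 genes in the table. All 8 passed the filter on low values, which kept 15598 genes with a mean normalized read value of at least 5. A normalized read value is the estimated number of reads of a gene after division by the size factor of its library, so values of different genes, which differ in length, are not compared with each other here.

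The animals were 44 male F344 rats, with 1 DG library per rat. Young rats (YNG, n = 10) were 6 months old. The deposited sample attributes name them as vehicle rats, and their dosing schedule is not given in the sources used here. Older rats entered treatment at 12 months and were about 18 months old at collection; they received vehicle (AV, n = 12), ABT-263 at 12 mg/kg (AA, n = 11), or dasatinib at 1.2 mg/kg together with quercetin at 12 mg/kg (ADQ, n = 11). ABT-263 is an inhibitor of BCL-2 family proteins, dasatinib a tyrosine kinase inhibitor and quercetin a plant flavonol, and they were given to these rats as senolytics, drugs meant to clear senescent cells. All older rats were dosed by oral gavage for 5 consecutive days per cycle, in 8 cycles before behavioral testing, with a final round 2 weeks before euthanasia, and all 3 older groups therefore shared age, gavage and vehicle. The labels give only the age at the start for older rats, and the treatment of each rat was read from the deposited table of sample attributes. The normalized values of a library summed to between 14297964 and 20579982. The granule cell markers Prox1, C1ql2, Calb1 and Dsp were present in every rat, with Prox1 between 608.7 and 3811, whereas the markers Tdo2 and Lct did not exceed 6.146 and 6.684. The CA1 marker Wfs1 ranged from 597.1 to 23420.

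A set of 10 libraries stood apart and bears on every comparison with YNG. The mean log2 level of 77 cytosolic ribosomal protein genes left a gap between 10.04 and 10.33, and 10 rats lay above it: 6 of 10 YNG, 3 of 12 AV, 1 of 11 AA and 0 of 11 ADQ rats. Labels name no batch. The rats were divided here by their numbers into series a (older rats numbered 3890 to 4011 and young rats V1 to V6) and series b (4031 to 4572 and V9 to V12), with 22 rats each and all 4 groups in both; no label gives this division, ties young to older numbers or dates it.

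Cholesterol is made from acetyl-CoA. Hmgcs1 acts before mevalonate, Idi1 interconverts the isoprenoid units, Fdft1 joins farnesyl units into squalene, Sqle oxidizes squalene, Lss closes the rings to lanosterol, and Dhcr7 acts at the end of the route to cholesterol. The brain makes its own cholesterol, largely in glia in the adult, because the blood-brain barrier keeps out lipoprotein cholesterol. Srebf2 encodes SREBP2, which is held in the endoplasmic reticulum by INSIG proteins when sterols are plentiful, and which is cleaved and activates the genes of the pathway, its own gene included, when sterols are scarce.

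The sequences before the transcription start are shown for Hmgcs1 and Srebf2, which were higher in ADQ than in AV and YNG, and for Idi1 and Dhcr7, which were lower in AV and AA than in YNG. Lss, which was higher in ADQ than in YNG, is described by its motifs alone. The RefSeq table of promoters (GRCr8 build) matched 6 of the 8 genes; Sqle and Fdft1 had no entry. Each line gives the 250 bases before the start, 5′ to 3′ on the strand of the gene, with CCAAT on either strand (read as ATTGG on the other strand) in capitals.
Hmgcs1 (chr2:53382054-53382303, plus strand): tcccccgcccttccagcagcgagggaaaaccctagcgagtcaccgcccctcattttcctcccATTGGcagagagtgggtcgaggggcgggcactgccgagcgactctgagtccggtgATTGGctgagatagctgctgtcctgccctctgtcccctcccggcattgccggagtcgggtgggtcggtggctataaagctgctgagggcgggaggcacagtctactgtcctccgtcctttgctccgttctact
Srebf2 (chr7:115543057-115543306, plus strand): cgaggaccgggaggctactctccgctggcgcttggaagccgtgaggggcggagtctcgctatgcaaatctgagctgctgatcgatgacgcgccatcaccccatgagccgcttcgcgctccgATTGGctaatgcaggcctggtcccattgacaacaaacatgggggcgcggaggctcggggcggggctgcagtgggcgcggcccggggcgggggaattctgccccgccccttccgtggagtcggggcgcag
Idi1 (chr17:66547525-66547774, minus strand): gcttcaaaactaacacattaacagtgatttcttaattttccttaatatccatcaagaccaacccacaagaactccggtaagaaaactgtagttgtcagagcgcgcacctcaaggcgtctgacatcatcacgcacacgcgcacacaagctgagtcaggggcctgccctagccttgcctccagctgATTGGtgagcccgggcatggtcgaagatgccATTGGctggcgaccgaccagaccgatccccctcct
Dhcr7 (chr1:208444184-208444433, plus strand): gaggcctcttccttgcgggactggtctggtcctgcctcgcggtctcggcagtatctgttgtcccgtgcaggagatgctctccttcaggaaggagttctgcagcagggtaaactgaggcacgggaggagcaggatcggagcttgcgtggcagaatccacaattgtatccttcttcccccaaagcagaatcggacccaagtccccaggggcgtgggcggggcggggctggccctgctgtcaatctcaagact
CCAAT, the motif of NF-Y, was present on either strand in 5 of the 6 promoters, and 34% of the 33469 promoters in the table held it within the same 250 bases. It occurred at 2 positions in Hmgcs1 and Idi1 and at 1 position in Srebf2, Insig1 and Lss, and Dhcr7 had none. GGGCGG, the motif of Sp1, was present in 5 of 6 (30.5% of all promoters), with 4 positions in Hmgcs1, 4 in Srebf2, 2 in Lss, 2 in Dhcr7, 1 in Insig1 and none in Idi1. The sterol regulatory element searched as TCACNCCAC, on both strands, was in 0 of 6 promoters and in 0.974% of all. Looser forms of this element were not searched for. These counts describe letters in the window, and binding was not measured.

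Against YNG, older rats had higher Srebf2 in all 3 treatment groups, lower Idi1 and Dhcr7 in AV and AA, and higher Hmgcs1 and Lss in ADQ. Idi1 and Dhcr7 were also below YNG in ADQ, without passing (limma p = 0.0662 and 0.0617). For neither gene did ADQ differ from AV or AA at an unadjusted p of 0.05. Among older rats, ADQ had higher Hmgcs1 than both AV and AA and higher Srebf2 than AV. Sqle, Fdft1 and Insig1 passed the threshold, an unadjusted p of 0.05 in limma, in 0 of 6 comparisons, although Insig1 in ADQ against YNG did so within series b (0.21 ± 0.09, p = 0.0365). In bulk tissue, fewer cells of a type and less RNA per cell cannot be told apart.

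**Figure D1:**
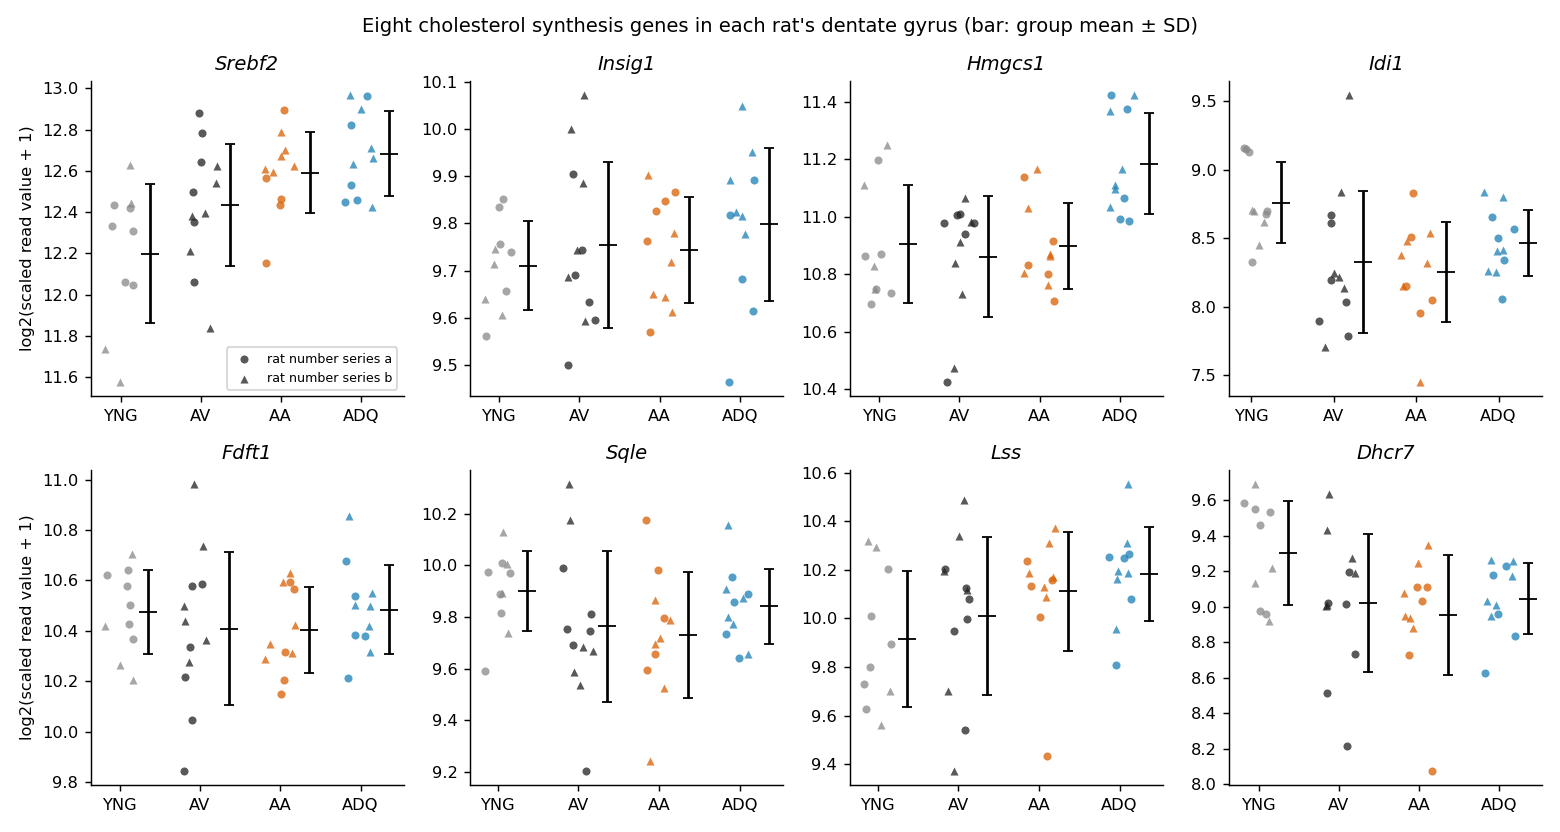
Normalized read values, as log2(value + 1), of the 8 genes in each of 44 rats (circles, rat number series a; triangles, series b), with bars for the group mean ± SD. Hmgcs1 in the 11 ADQ rats lies between 2026 and 2745 on the linear scale, above the AV median of 1992 in every rat, while Sqle, Fdft1 and Insig1 overlap widely between groups.

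For AV against YNG, 3 of 8 genes passed the threshold, 1 higher and 2 lower, with a median log2 difference of -0.05 over the 8. Over all genes tested, 21.3% passed (10.6% higher, 10.7% lower), and 2.35% had an adjusted p under 0.05; none of the 8 did. For AA against YNG, 3 of 8 passed, 1 higher and 2 lower (median -0.04), beside 26.6% of all genes (12.6% higher, 14.1% lower), and 1 of 8 passed after adjustment beside 3.85%. For ADQ against YNG, 3 of 8 passed, all higher (median 0.05), beside 28.1% of all genes (13.5% higher, 14.6% lower), and 2 of 8 passed after adjustment beside 7.08%. With 8 genes and such shares of all genes, nothing is read from these counts. Without the 10 rats of high ribosomal protein level, 4 YNG, 9 AV, 10 AA and 11 ADQ rats remained. In that set 0 of 8 genes passed in AV, 1 in AA (Hmgcs1, lower, -0.20 ± 0.09, p = 0.0379) and 1 in ADQ (Srebf2, higher). The shares of all genes that passed also fell, to 7.61%, 6.34% and 3.65%. These 3 comparisons use the same YNG rats, and scaling each library to its total instead of by median ratio raised the share of all calls that were higher from 49.6% to 81.1% (AV), 47.2% to 85.3% (AA) and 48% to 82.7% (ADQ), with shifts of the median gene of 0.1, 0.15 and 0.15 (log2). Under upper quartile scaling this share was 61.1% in AV. Under scaling to the total, 2 of 8 genes were higher and 1 lower in AV, 3 higher and 1 lower in AA, and 4 higher and 0 lower for ADQ. The shares of all genes that passed were then 22.3%, 33.2% and 33.4%.

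For AA against AV, 0 of 8 genes passed (median -0.01), beside 4.51% of all genes (1.4% higher, 3.1% lower; 703 genes). For ADQ against AV, 2 of 8 passed, both higher, beside 9.32% of all genes (3.42% higher, 5.9% lower; 1454 genes). All 8 differences were positive, with a median of 0.11, whereas 52.1% of all genes tested had a positive difference (median 0.01). The smallest, that of Dhcr7, was 0.03 and fell as low as -0.047 when 1 rat was left out. For AA against ADQ, 1 of 8 passed, lower in AA, beside 4.53% of all genes (2.13% higher, 2.4% lower; 707 genes), and 0 of 8 differences were positive. After adjustment 0% of all genes passed in limma in each of these 3 comparisons. ADQ against AV and AA against ADQ share the ADQ rats. The 8 genes were read from the same libraries, so their signs are not independent, and nothing is read from the counts of signs. The share of all calls that were higher moved under scaling to the total from 31.2% to 52.7% for AA against AV, from 36.7% to 47.8% for ADQ against AV and from 47% to 61.9% for AA against ADQ, and the calls among the 8 genes were then still Hmgcs1 and Srebf2 (ADQ against AV) and Hmgcs1 (AA against ADQ).

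**Figure D2:**
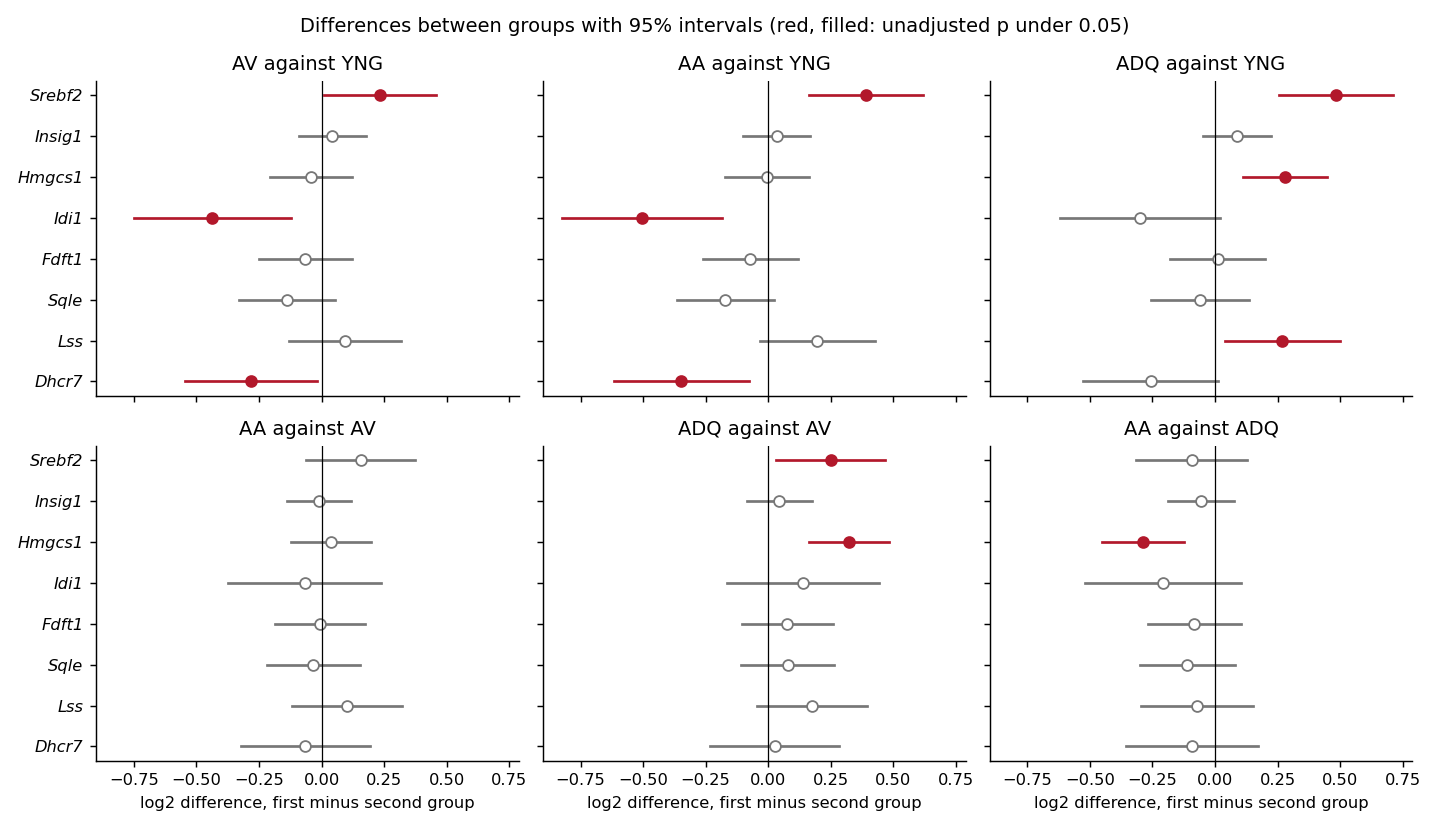
Log2 difference (first group minus second) of each gene with its 95% interval from limma in the 6 comparisons; filled red points had an unadjusted p under 0.05. The interval for Hmgcs1 lies above 0 for ADQ against YNG (0.11 to 0.45) and ADQ against AV (0.16 to 0.48) and below 0 for AA against ADQ (-0.45 to -0.12).

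Hmgcs1, the cytosolic HMG-CoA synthase, gave the clearest difference between treatments. Its normalized read values (lowest, median, highest) were 1659, 1839 and 2434 in YNG, 1374, 1992 and 2144 in AV, 1672, 1864 and 2296 in AA, and 2026, 2212 and 2745 for ADQ. All 11 ADQ rats exceeded the AV median, 7 of 11 exceeded the highest AV rat, and 9 of 12 AV rats lay below the lowest ADQ rat. The log2 difference was 0.32 ± 0.08 (SE) for ADQ against AV (1.25-fold, p = 0.000187, adjusted p = 0.134) and -0.29 ± 0.08 for AA against ADQ (p = 0.001, adjusted p = 0.981). Hmgcs1 had the smallest p of all genes that were higher in ADQ than in AV, and ranked 18 of 15598 in either direction; in AA against ADQ it ranked 9. Neither difference passed adjustment over all genes.

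The Hmgcs1 difference between ADQ and AV was 0.28 ± 0.12 within series a (p = 0.0328) and 0.37 ± 0.11 within series b (p = 0.00255). It was 0.24 ± 0.07 (p = 0.00185) without the 10 rats of high ribosomal protein level, and 0.28 ± 0.07 (p = 0.000145) with that level as a covariate. The AA against ADQ difference was -0.29 within series a (p = 0.0337), -0.28 within series b (p = 0.0153) and -0.28 (p = 0.000252) without those rats. Against YNG, Hmgcs1 was higher in ADQ by 0.28 ± 0.08 (p = 0.00153, adjusted p = 0.0348). Without the 10 rats, which left 4 YNG rats, this difference was 0.08 ± 0.09 (p = 0.398). AV and AA differed from YNG by -0.04 and -0.01 (p = 0.604 and 0.952), and AA differed from AV by 0.04, with a 95% interval of -0.12 to 0.20.

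Srebf2 had its lowest levels in YNG. The values were 3057, 5117 and 6335 in YNG, 3658, 5588 and 7531 in AV, 4551, 6239 and 7620 in AA, and 5503, 6474 and 8000 for ADQ. The groups overlapped, although 7 of 10 YNG rats lay below the lowest ADQ rat and 7 of 11 ADQ rats above the highest YNG rat. The difference from YNG was 0.23 ± 0.11 in AV (p = 0.0403, adjusted p = 0.213), 0.39 ± 0.11 in AA (p = 0.00122, adjusted p = 0.0458) and 0.48 ± 0.11 in ADQ (1.4-fold, p = 9.84e-05, adjusted p = 0.0169). ADQ exceeded AV by 0.25 ± 0.11 (p = 0.0258), a difference that did not pass adjustment over all genes, and the 2 senolytic groups differed by -0.09, AA minus ADQ, with an interval of -0.32 to 0.13. The order YNG, AV, AA, ADQ held for the means, and with all rats AA could not be told from either of its neighbors (p = 0.155 against AV, p = 0.406 against ADQ). The mean Srebf2 value was 5236 in AV and 6498 in AA within series b, and 6042 and 5886 within series a.

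The Srebf2 differences were smaller without the 10 rats of high ribosomal protein level: 0.11 in AV (p = 0.297), 0.18 in AA (p = 0.0925) and 0.23 ± 0.10 in ADQ (p = 0.0325), and 0.12 for ADQ against AV (p = 0.149). Within series b, Srebf2 was higher in ADQ than in AV by 0.38 ± 0.15 (p = 0.0195), and within series a by 0.11 ± 0.15 (p = 0.464). The AV rats of series b carry numbers from 4566 to 4572, a run that holds no treated rat, and without them the ADQ against AV difference of Srebf2 was 0.15 (p = 0.256), while that of Hmgcs1 was 0.30 ± 0.10 (p = 0.0037).

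Insig1 encodes the sterol-sensitive retention protein of the SREBP pathway and is itself an SREBP target. It was the least variable of the 8 genes within YNG, with values of 754.2, 846.4 and 922.4, and it reached 723.1, 841.3 and 1075 in AV, 759.4, 867.5 and 955.9 in AA, and 705.9, 901 and 1058 for ADQ. The ranges overlapped throughout. The 6 differences lay between -0.05 and 0.09, and the widest 95% interval bound was 0.22, for ADQ against YNG (p = 0.199).

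Idi1, isopentenyl-diphosphate isomerase, was lower in AV and AA than in YNG. The values were 319.7, 414.7 and 569.9 in YNG, 208, 294.3 and 744.7 in AV, 174.1, 318 and 453.6 in AA, and 264.6, 339.9 and 456.2 for ADQ. Of the 12 AV rats, 8 lay below the lowest YNG rat, and 1, rat 4567, lay above the highest. The difference from YNG was -0.44 ± 0.16 in AV (p = 0.00725, adjusted p = 0.108), -0.50 ± 0.16 in AA (0.705-fold, p = 0.00263, adjusted p = 0.0547) and -0.30 ± 0.16 in ADQ (p = 0.0662). Older groups did not differ from each other at the threshold; the largest of these differences was -0.21, AA minus ADQ, with an interval of -0.52 to 0.11.

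The Idi1 difference of AV from YNG was -0.66 ± 0.18 within series a (p = 0.00153) and -0.17 ± 0.25 within series b (p = 0.51). Without the 10 rats of high ribosomal protein level it was -0.36 ± 0.18 (p = 0.0506), and that of AA was -0.29 ± 0.17 (p = 0.104). In that set of 34 rats, Idi1 was higher in ADQ than in AV by 0.30 ± 0.13 (p = 0.0303, adjusted p = 0.496), a difference of 0.14 ± 0.15 (p = 0.366) with all rats.

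Fdft1, squalene synthase, and Sqle, squalene epoxidase, act in succession and neither passed the threshold. Fdft1 values were 1179, 1413 and 1669 in YNG, 918.8, 1352 and 2021 in AV, 1133, 1301 and 1585 in AA, and 1187, 1448 and 1850 for ADQ. Sqle values were 769.6, 975.8 and 1118 in YNG, 589.6, 842.1 and 1273 in AV, 604.3, 841.8 and 1154 in AA, and 798.7, 927.1 and 1141 for ADQ. AV held both the lowest and the highest rat for each gene, and rat 3989 was the lowest for both. Fdft1 differences lay between -0.08 and 0.08, and the largest Sqle difference was -0.17 ± 0.10 in AA against YNG (p = 0.0838, interval -0.37 to 0.02).

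Lss, lanosterol synthase, was higher in ADQ than in YNG. Its values were 754.6, 921.1 and 1277 in YNG, 662.3, 1096 and 1435 in AV, 691.3, 1141 and 1325 in AA, and 895.9, 1172 and 1501 for ADQ, and 10 of 11 ADQ rats exceeded the YNG median. The difference was 0.27 ± 0.11 (p = 0.0227, adjusted p = 0.116) for ADQ, 0.20 ± 0.11 (p = 0.0917) for AA and 0.09 ± 0.11 (p = 0.402) for AV. With the ribosomal protein level as a covariate the ADQ difference was -0.02 (p = 0.805), and without the 10 rats it was also -0.02 (p = 0.806). Without ADQ rat 4032 or YNG rat V9, p was 0.0501 or 0.0537.

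Dhcr7, the reductase that completes cholesterol from its direct precursor, was lower in AV and AA than in YNG. The values were 482.8, 649.2 and 825.8 in YNG, 296.2, 518.3 and 793.9 in AV, 269.3, 521.8 and 651.4 in AA, and 394.9, 522 and 613.4 for ADQ. No ADQ rat exceeded the YNG median, and 5 of 10 YNG rats lay above the highest ADQ rat. The difference was -0.28 ± 0.13 in AV (p = 0.0367, adjusted p = 0.204), -0.35 ± 0.13 in AA (p = 0.0125, adjusted p = 0.0958) and -0.26 ± 0.13 in ADQ (p = 0.0617). Within series a it was -0.56 ± 0.19 in AV (p = 0.00602) and within series b 0.02 ± 0.14 (p = 0.906). Without the 10 rats of high ribosomal protein level, the 3 differences were -0.02, -0.08 and 0.03 (p = 0.882, 0.596 and 0.85). With all rats, the Dhcr7 difference was 0.03 for ADQ against AV (p = 0.84) and -0.09 for AA against ADQ (p = 0.486).

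The table divides some genes into rows that share a gene identifier. Srebf2 had 99.6% of its signal in 1 of 2 rows, Lss 82.5% in the largest of 3, and Dhcr7 82.6% in the larger of 2; the other 5 genes had 1 row. In Dhcr7 the smaller row carried 11.5% ± 3.73 (SD) of the YNG signal, 19.3% ± 8.26 in AV, 19.2% ± 10.2 in AA and 20.8% ± 10.2 for ADQ. The larger row had means of 567.2, 432.6, 409.6 and 426.3 in these groups, and the smaller row 75.3, 102.6, 96.86 and 106.1. The share of the smaller row, a comparison chosen after its values were seen, was higher than in YNG by 7.75 percentage points in AV (two-sided permutation test with 100000 resamples, p = 0.0139, adjusted over 3 tests 0.0209), 7.72 in AA (permutation p = 0.0318, adjusted 0.0318) and 9.26 in ADQ (permutation p = 0.00917, adjusted 0.0209). Because the comparison was picked from these same values, its p-values are descriptive only. The shares were not computed without the rats above the ribosomal gap. In Lss the second row, not tested, carried 16.8% of the signal in YNG, 16.4% in AV, 17% in AA and 15.6% for ADQ. Which transcripts the rows stand for is not given in the sources used here.

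The 10 rats of high ribosomal protein level differed from the other 34 in several of the genes, as a description across groups. Srebf2 had a median of 4277 in the 10 rats and 6277 in the 34, Lss 811 and 1164, and Hmgcs1 1720 and 2057. Idi1 had a median of 436 in the 10 rats and 321.1 in the 34, Dhcr7 721.6 and 516, Fdft1 1557 and 1331, and Sqle 1029 and 860.5. Insig1 hardly separated them, at 860.6 and 856.7. The ribosomal protein genes were lower than in YNG in 33 of 77 genes in AV, 60 in AA and 63 for ADQ, with none higher, and 0 of 77 passed in each comparison among older groups.

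**Figure D3:**
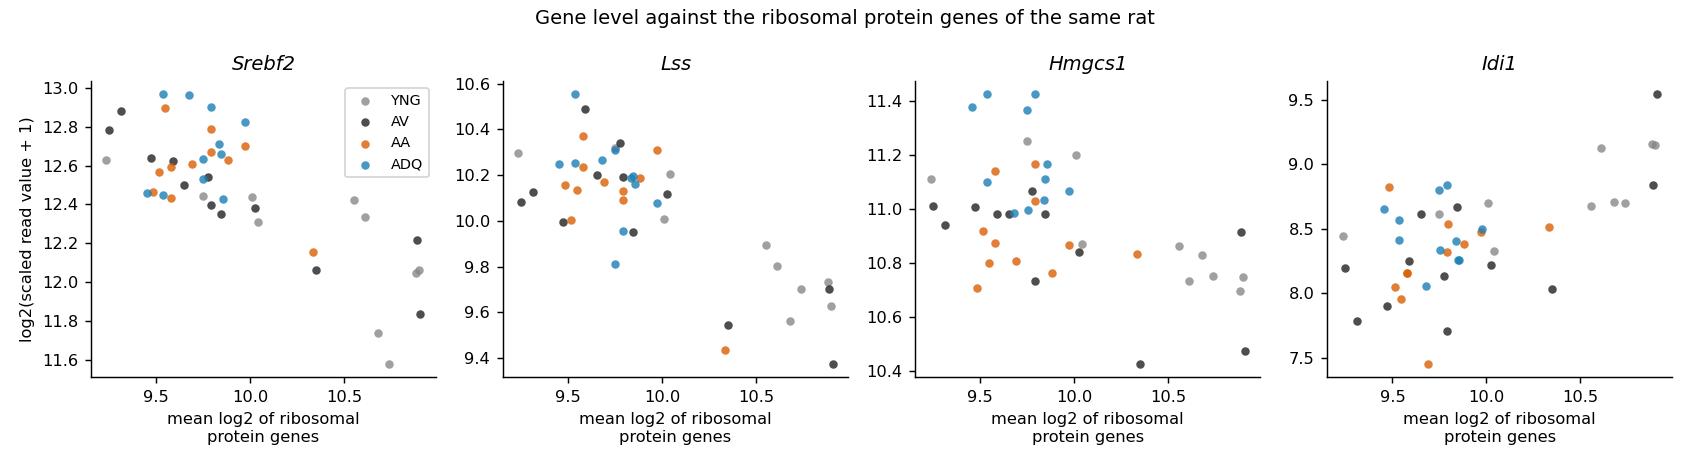
Log2(value + 1) of Srebf2, Lss, Hmgcs1 and Idi1 in each rat against the mean log2 level of 77 ribosomal protein genes in the same library, colored by group. The 10 rats to the right of the gap between 10.04 and 10.33, 6 of them YNG and none ADQ, have low Srebf2 and Lss, and the ADQ rats all lie to its left.

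Within groups, the genes did not vary as 1 block. Deviations of log2 values from group means were correlated for the 28 pairs over the 34 rats below the gap, because the rats above it form a separate cluster. The gap was found in these same data. The p-values are from two-sided permutation tests with rats exchanged within groups, adjusted over the 28 pairs. For 6 pairs both r and rho had an adjusted p under 0.05. The share of pairs of other genes that vary as strongly was not computed, so nothing particular to the pathway is read from this count. Srebf2 varied with Dhcr7 (r = 0.638, permutation p = 5e-05, adjusted 0.0014; rho = 0.731, permutation p = 1e-05, the smallest these permutations can give, adjusted 0.00028), with Fdft1 (r = 0.605, permutation p = 0.00042, adjusted 0.00392; rho = 0.609, permutation p = 0.00036, adjusted 0.00336) and with Sqle (r = 0.514, permutation p = 0.00193, adjusted 0.0098; rho = 0.502, permutation p = 0.00358, adjusted 0.0229). Fdft1 varied with Dhcr7 (r = 0.601, permutation p = 0.00021, adjusted 0.00294; rho = 0.628, permutation p = 0.00017, adjusted 0.00238) and with Sqle (r = 0.522, permutation p = 0.0021, adjusted 0.0098; rho = 0.503, permutation p = 0.00409, adjusted 0.0229). The sixth pair was Hmgcs1 with Insig1 (r = 0.538, permutation p = 0.00198, adjusted 0.0098; rho = 0.477, permutation p = 0.0073, adjusted 0.0341). Hmgcs1 with Idi1 passed by rho but not by r (rho = 0.442, permutation p = 0.0108, adjusted 0.0434; r = 0.380, permutation p = 0.0275, adjusted 0.0963).

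Leaving out the 2 rats farthest from the median of 1 gene of the pair (Srebf2, Sqle, Fdft1 or Hmgcs1), r was 0.663, 0.601 and 0.548 for Srebf2 with Dhcr7, Fdft1 and Sqle, 0.580 and 0.475 for Fdft1 with Dhcr7 and Sqle, and 0.485 for Hmgcs1 with Insig1. With all 44 rats the picture differed: Srebf2 with Dhcr7 gave 0.093, Srebf2 with Fdft1 0.028, Srebf2 with Lss 0.665 and Hmgcs1 with Lss 0.514, and the last 2 were 0.121 and 0.028 in the 34 rats. Some pairs were negative in the 44 rats, among them Idi1 with Lss (-0.436), Sqle with Lss (-0.435) and Idi1 with Srebf2 (-0.409). These were -0.042, -0.135 and -0.197 in the 34 rats. Sqle with Idi1 gave 0.598 in the 44 rats and 0.366 in the 34. Fdft1 with Dhcr7 (0.791) and Sqle with Fdft1 (0.746) were high in both sets. In the 9 YNG and AV rats above the gap they were 0.981 (permutation p = 0.00164, adjusted 0.0459) and 0.918, which did not pass (permutation p = 0.172, adjusted 0.535).

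**Figure D4:**
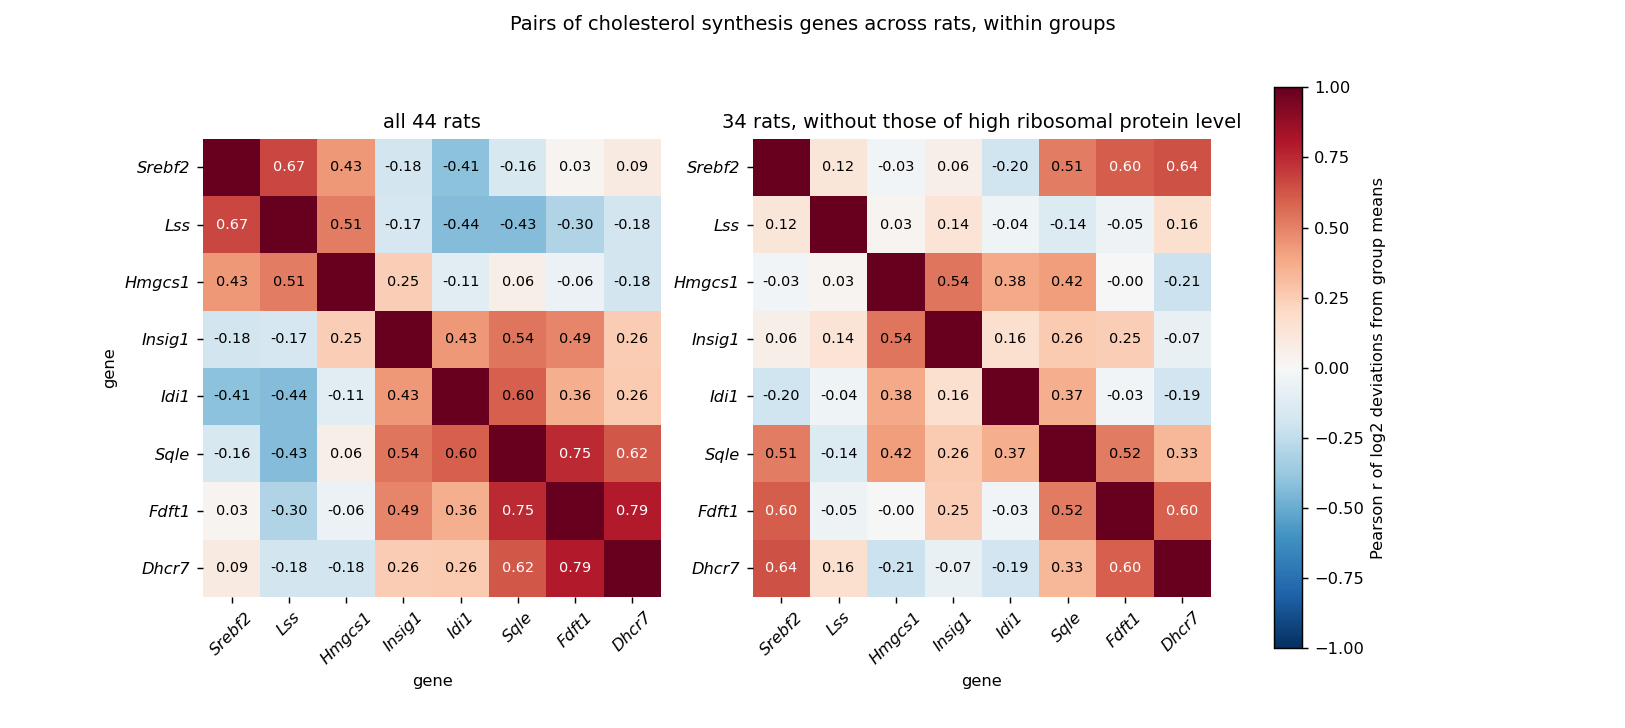
Pearson r of log2 deviations from group means for the 28 pairs of genes, in all 44 rats (left) and in the 34 rats below the ribosomal gap (right). The block of Srebf2, Lss and Hmgcs1 at the upper left of the left panel (0.665, 0.432 and 0.514) is absent at right (0.121, -0.027 and 0.028), where Srebf2 varies with Sqle, Fdft1 and Dhcr7.

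Among the other enzymes of the pathway, the differences from YNG that passed were downward. For these enzymes and the lists that follow, all YNG rats were used, 6 of 10 of them above the ribosomal gap. Counts without the rats above the gap are not given for these lists. Of 12 tested genes, 5 were lower in AV (Mvk, Fdps, Cyp51, Tm7sf2 and Msmo1), 4 were lower in AA (Pmvk, Cyp51, Tm7sf2 and Msmo1), and 5 were lower in ADQ (Mvk, Pmvk, Cyp51, Tm7sf2 and Msmo1), with none higher, beside 10.7%, 14.1% and 14.6% of all genes that were lower. The medians over the 12 were -0.19, -0.15 and -0.17, beside medians within 0.01 of 0 for all genes. Among the older groups 0 of 12 passed in each comparison in limma. Tm7sf2, a sterol reductase after lanosterol, had the smallest p-values of the enzymes in AA and ADQ: its values were 373, 645.3 and 759.8 in YNG and 271.6, 429.5 and 505.5 in AA, a difference of -0.51 ± 0.13 (p = 0.000465, adjusted p = 0.0359), and the ADQ difference was -0.48 ± 0.13 (p = 0.000797, adjusted p = 0.0276). Cyp51, the lanosterol demethylase, was lower in AV, with a difference of -0.26 ± 0.08 (p = 0.00269, adjusted p = 0.0745).

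**Figure D5:**
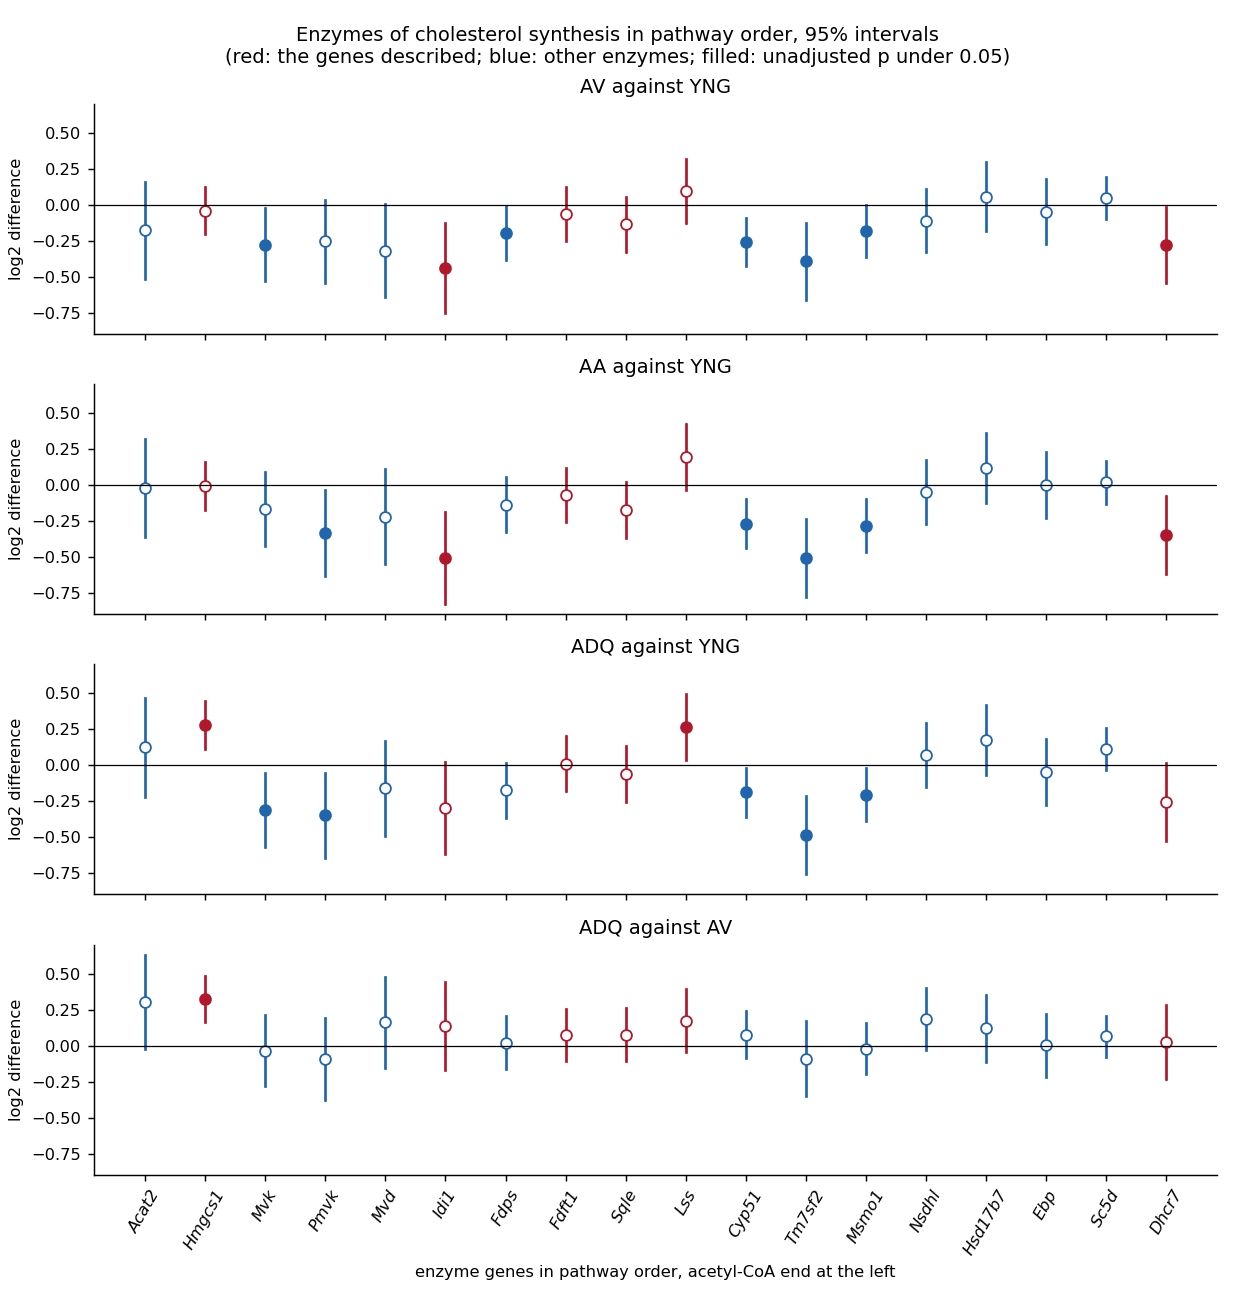
Log2 differences with 95% intervals for 18 enzyme genes, in the order of the pathway from acetyl-CoA (left) to cholesterol (right), for the 3 older groups against YNG and for ADQ against AV. Red marks the genes described above and blue the other enzymes. The intervals of Cyp51, Tm7sf2 and Msmo1 lie below 0 in each older group against YNG. That of Idi1 does in AV and AA and reaches 0.02 for ADQ. Hmgcs1 stands out in the lowest panel.

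Genes that control SREBP, and those of sterol efflux, release and fatty acid synthesis, were counted from lists, and are read beside the 21.3% (AV), 26.6% (AA) and 28.1% (ADQ) of all genes that passed against YNG. Of 7 genes of SREBP processing, 2 were lower and 1 higher in AV than in YNG, 4 were lower in AA and 2 were lower for ADQ, which for ADQ is about the share of all genes. Srebf1, the SREBP1 gene, had medians of 1516 in YNG, 1719 in AV, 1604 in AA and 1444 for ADQ, and it was lower in ADQ than in AV by -0.28 ± 0.09 (p = 0.00247, adjusted p = 0.259), the direction opposite to that of Srebf2. Mbtps2, a protease that releases SREBP, was lower in AA than in ADQ by -0.30 ± 0.11 (p = 0.0117, adjusted p = 0.981). Stard4, a sterol transfer protein gene and SREBP2 target, was higher in AV than in YNG by 0.30 ± 0.14 (p = 0.0356, adjusted p = 0.201).

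Of 8 genes of LXR and efflux, 3 were higher and 1 lower than in YNG in AV and in AA, and 1 was higher and 3 lower for ADQ, so that 4 of 8 passed in each group beside the 21.3%, 26.6% and 28.1% of all genes. Nr1h3, which encodes LXRα, had medians of 45.26 in AV, 33.13 in AA and 33.1 for ADQ, and was lower than in AV by -0.41 ± 0.19 in AA (p = 0.0354, adjusted p = 0.999) and -0.61 ± 0.19 in ADQ (p = 0.00214, adjusted p = 0.244). Lcat, which esterifies cholesterol on lipoproteins, was lower in ADQ than in AV by -0.56 ± 0.17 (p = 0.00191, adjusted p = 0.238), and Nr1h2, the LXRβ gene, was higher in AA than in ADQ by 0.24 ± 0.11 (p = 0.0311, adjusted p = 0.981). For Lcat the difference of AA from ADQ was 0.32 ± 0.18 and did not pass (p = 0.071, adjusted p = 0.981). Of 4 oxysterol enzymes, Cyp46a1 was lower in AV than in YNG and Ch25h was lower in ADQ than in AV. Of 5 genes of release and storage, 2 were higher in AV than in YNG, 1 in AA and 1 for ADQ, beside 10.6%, 12.6% and 13.5% of all genes. Npc1, which exports cholesterol from lysosomes, was higher in all 3 older groups, with medians of 727.6 in YNG and 953.5 in AV and differences of 0.39 ± 0.10 in AV (p = 0.000332, adjusted p = 0.0264), 0.27 ± 0.10 in AA (p = 0.0118, adjusted p = 0.0935) and 0.22 ± 0.10 for ADQ (p = 0.0424, adjusted p = 0.162). The ADQ call was lost in 12 of 21 fits that left out 1 rat (p up to 0.0772). Npc2, its partner in the lysosome, was higher in AV (0.36 ± 0.13, p = 0.0102, adjusted p = 0.122).

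Of 10 genes of fatty acid synthesis, 2 were lower in AV than in YNG, 1 was higher and 2 lower in AA, and 3 were higher and 2 lower for ADQ. The totals of 2 and 3 of 10 for AV and AA are about the 21.3% and 26.6% of all genes that passed, and 5 of 10 for ADQ stands beside 28.1%. The desaturase Fads2 had medians of 1755 in YNG, 1273 in AV, 1090 in AA and 1146 for ADQ, with differences from YNG of -0.58 ± 0.13 in AA (p = 8.09e-05, adjusted p = 0.0233) and -0.53 ± 0.13 in ADQ (p = 0.000236, adjusted p = 0.0198). Fads1 was lower in AA than in YNG, with a difference of -0.31 ± 0.07 (p = 5.31e-05, adjusted p = 0.0217), and than in AV, with a difference of -0.14 ± 0.07 (p = 0.0484, adjusted p = 0.999). Acly, which supplies cytosolic acetyl-CoA, was higher in ADQ than in YNG by 0.30 ± 0.08 (p = 0.000387, adjusted p = 0.0223); its difference of AA from AV was 0.13 ± 0.07 (p = 0.0927).

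The genes whose values varied most like the 8 genes as a set were sought by Pearson r between their deviations from group means and the mean scaled deviation of the 8, over 44 rats and 13696 genes with a mean of at least 20. Among the 10 highest were Kif3c (0.838), Acat2 (0.794), Kcnh8 (0.787), Hmces (0.783), Rnf14 (0.777), Islr2 (0.776), Gabbr2 (0.776), Me3 (0.775) and Atp6v0a1 (0.774). All genes of a rat were read from the same library, and these correlations are a description with no test. Acat2, which acts at the start of the route, ranked 3. The 44 rats include those above the ribosomal gap, and the 8 genes hardly formed a set in them. With the mean of the other members, r was -0.085 for Lss, 0.121 for Srebf2 and 0.183 for Idi1, and from 0.237 (Hmgcs1) to 0.598 (Fdft1) for the rest. The mean scaled deviation of AV rat 3989 was -2.039, while the highest, in AV rat 4572, was 1.019.

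Levels of other cell types moved with some of these comparisons. The counts stand beside 10.6% (AV), 12.6% (AA) and 13.5% (ADQ) of all genes higher than in YNG, 10.7%, 14.1% and 14.6% lower, and 5.9% lower in ADQ than in AV. Of 10 oligodendrocyte markers, 8 were higher in AV than in YNG, 4 in AA and 2 for ADQ, and 5 of 10 were lower in ADQ than in AV; their summed value ranged from 46140 to 126200 in YNG, 58950 to 185700 in AV, 57020 to 160100 in AA and 64360 to 82710 for ADQ. Of 8 microglial markers, 2 were higher in AV and 1 in AA than in YNG, 1 was lower for ADQ, and 5 were lower in ADQ than in AV, with summed values of 5159 to 10110 in AV and 4550 to 6092 in ADQ. Of 8 astrocyte markers, 2 were higher in AV than in YNG, 2 were lower in AA and 2 for ADQ, and 2 were lower in ADQ than in AV, with summed values of 53870 to 112200 in AV and 55050 to 65480 in ADQ. All 4 red blood cell markers were lower in ADQ than in AV, with summed values of 3679 to 90350 in AV and 3318 to 13920 in ADQ, and 2 of 6 choroid plexus markers were. Of 5 endothelial markers, 4 were higher in AV, 2 in AA and 1 for ADQ than in YNG, and 3 were lower in ADQ than in AV. Of 6 granule cell markers, 1 was lower than in YNG in AV, 2 in AA and 2 for ADQ, with none higher, and 0 of 6 passed in each comparison among the older groups, and the CA1 markers gave 0 of 5 calls in all 6 comparisons. The part of these differences in the Hmgcs1 and Srebf2 results was not tested.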

How the data were processed

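RNA from the DG of each rat was poly(A)-selected and sequenced on an Ion platform. According to the paper and the submitters' processing notes, the authors trimmed the reads, aligned them to rn6 with STAR 2.5.3a in Partek Flow, scaled them by median ratio and tested them with DESeq2; annotation and counting model are not given in the sources used here. The deposited values are signal, in which the size factor of a library has already divided the estimated reads of each row. They are not whole reads, so no count model was used.

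Here, the 24694 rows were summed to 18347 genes, and 15598 genes with a mean of at least 5 were fitted as log2(value + 1) with limma 3.58.1 (R 4.3.3, trended empirical Bayes, 4 groups in 1 fit, two-sided). Fold changes are on this scale, which understates those of low genes. The threshold was an unadjusted p of 0.05, as in the study, with Benjamini-Hochberg values over all genes tested. Each rat is 1 replicate; the replicate numbers pair no rats. The 8 genes, the lists, the motifs and the rule for named genes (in each comparison the 3 smallest p of the other lists, and the 10 most alike genes) were chosen with earlier results of these data known. The correlations and row shares used permutations (numpy 2.4.6), and the fit was tested on simulated data. Of the other pathway genes, Elovl6 fell below the filter and Lbr is not listed under that name; some genes are not reported here. Library totals limit precision, and depth in reads is unknown.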

Additional observations from a re-analysis of the deposited data

How the results depend on the processing

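The counts of genes past the threshold (3, 3, 3, 0, 2 and 1 of 8 for AV, AA and ADQ against YNG, AA against AV, ADQ against AV and AA against ADQ) stayed within 1.5 times under 2 other pseudocounts, 2 other filters, 2 scalings, the largest row per gene, the robust option and series as a covariate. They moved to 1 (AV) and 5 (ADQ against YNG) when only the 2 groups compared were fitted, beside 16.8% and 32.3% of all genes. With array weights they were 5, 5 and 5 against YNG, beside 49.3%, 45.3% and 51.9% of all genes. Within series b they were 0 for AV and 1 for AA against YNG and 1 for AA against AV, beside 6.28%, 12.4% and 4.21% of all genes. Within series a the count was 1 for ADQ against AV, beside 5.71% of all genes. With the ribosomal protein mean as a covariate, an alternative added after seeing the data, the counts were 1 for AV and 1 for AA against YNG. The shares of all genes were then 11.3% and 6.41%. Without AV rats 4566 to 4572, also added, the counts were 4 for AV against YNG and 2 for ADQ against AV, beside 33.6% and 11.5% of all genes. Without the 10 rats above the ribosomal gap, likewise added, the counts were 0, 1 and 1 against YNG and 2 for AA against ADQ. The shares of all genes were then 7.61%, 6.34%, 3.65% and 7.56%. Of the differences of named genes that had passed the threshold, 4 turned in sign. Dhcr7 did so in AV against YNG within series b (0.017). Lss did so in ADQ against YNG with the covariate (-0.022) and without the 10 rats (-0.024). Nr1h2 (0.009) and Lcat (0.07) did so in ADQ against YNG without the 10 rats. Differences that had not passed also turned in places, such as Dhcr7 in ADQ against YNG without the 10 rats. The cause was not tested.

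Leaving out 1 rat at a time gave 1 to 4 genes for AV, 3 to 5 for AA and 2 to 5 for ADQ against YNG, 0 to 0 for AA against AV, 1 to 3 for ADQ against AV and 1 to 1 for AA against ADQ. The count was 1 for AV against YNG without V1, V2, V9 or 3999, 5 for AA against YNG without 3985, 5 for ADQ against YNG without V6 or 4106, and 1 for ADQ against AV without 3989, 4567, 4004 or 4032, where Srebf2 was lost (p from 0.0513 to 0.0678). Idi1 and Dhcr7 were the genes gained in ADQ against YNG without V6 (limma p = 0.0378 and 0.0372) or 4106 (limma p = 0.0439 and 0.0495). In AV against YNG, Srebf2 was lost without 3999, 4009, 4010, 4011, 4566, 4569, V1, V2, V9 or V12 (p up to 0.13), and Dhcr7 without 3890, 3989, 3999, V1, V2, V3, V4 or V9 (p up to 0.0968). Calls outside the 8 were lost as well, among them Fads1 in 16 and Nr1h3 in 6 of 23 such fits of AA against AV. In ADQ against YNG, Npc1 was lost in 12 and Cyp51 in 6 of 21 fits. Nr1h3 in AV against YNG was lost in 13 of 22, Mbtps2 in ADQ against AV in 10 of 23, and Nr1h2 in AA against ADQ in 5 of 22. Hmgcs1 was called in every such fit of ADQ against YNG, ADQ against AV and AA against ADQ. No paired analysis was possible because the replicate numbers, though shared by young and older rats, were given in accession order and tie no rats together.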
